A study of Monodelphis domestica with 2 samples.

Results

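Among the single-nucleus transcriptomes of opossum primary visual cortex (V1), the authors left out clusters of GABAergic nuclei as ambiguous, and 76 of those nuclei carried genes known from the striatum. They were chosen as nuclei of the GABAergic class in an ambiguous cluster with at least 10 unique molecular identifiers (UMIs) of PDE10A and at least 5 of ADCY5, and they made up 76 of the 36558 barcodes in the files. The 76 striatal-gene nuclei are described here by the genes outside that rule, against the labelled GABAergic subclasses of the same library. The study profiled V1 from 2 adult male gray short-tailed opossums (Monodelphis domestica), animal 1 aged 1.5 years and animal 2 aged 2 years, which were neither treated nor genetically altered. V1 was cut from a coronal slice by anatomical landmarks and parted from the white matter below it, both hemispheres were pooled, and nuclei were sorted on a DNA dye and loaded as 2 droplet libraries per animal, 1A and 1B for animal 1 and 2A and 2B for animal 2. Each pair of libraries came from a single suspension, so their spread is technical.

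The striatum is the main input nucleus of the basal ganglia, and most of its neurons are GABAergic projection neurons with spiny dendrites, called striatal projection neurons. They read dopamine through the cAMP pathway, in which the adenylyl cyclase ADCY5 makes cAMP, the phosphodiesterase PDE10A breaks it down, and the phosphatase inhibitor PPP1R1B (DARPP-32) passes the signal on. Neurons of the direct pathway carry the receptor DRD1 and stimulate cAMP, whereas those of the indirect pathway carry DRD2 and lower it. These neurons arise in the lateral ganglionic eminence, while cortical interneurons come mainly from the medial and caudal eminences.

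All 76 striatal-gene nuclei lay in animal 2, with 30 in library 2A and 46 in library 2B. They made up 17.8% of the 428 ambiguous GABAergic nuclei of that animal (exact Clopper-Pearson 95% interval 14.3 to 21.7%), 16.7% in library 2A (30 of 180) and 18.5% in library 2B (46 of 248). In animal 1, 0 of 302 ambiguous GABAergic nuclei met the rule, which allows a share of up to 1.21% by the exact interval, or 0.993% by a floor of 3 counts. The animals also differed in age and were processed in parallel by 2 experimenters, so animal, age, handling and dissection cannot be told apart, and no test over animals was possible. Unless animal 1 is named, every value below therefore describes nuclei of animal 2, with no test, and intervals cover counting error only.

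The genes of the rule set these nuclei far from the rest of the ambiguous GABAergic nuclei. The 30 nuclei of library 2A held 17 to 332 UMIs of PDE10A, with a median of 115, and the 46 of library 2B held 34 to 292, with a median of 92.5. The other ambiguous nuclei reached at most 8 UMIs in library 2A and 11 in library 2B. For ADCY5 the nuclei held at least 15 UMIs in library 2A and 9 in library 2B, against at most 5 and 3 in the others. These values chose the nuclei and support nothing further. The plot of both genes shows the gap. With minimums of 20 and 10 UMIs the rule kept 74 nuclei. With minimums of 5 and 3 UMIs it took 80, and the 4 added nuclei lay in animal 1, 2 in each library.

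**Figure D1:**
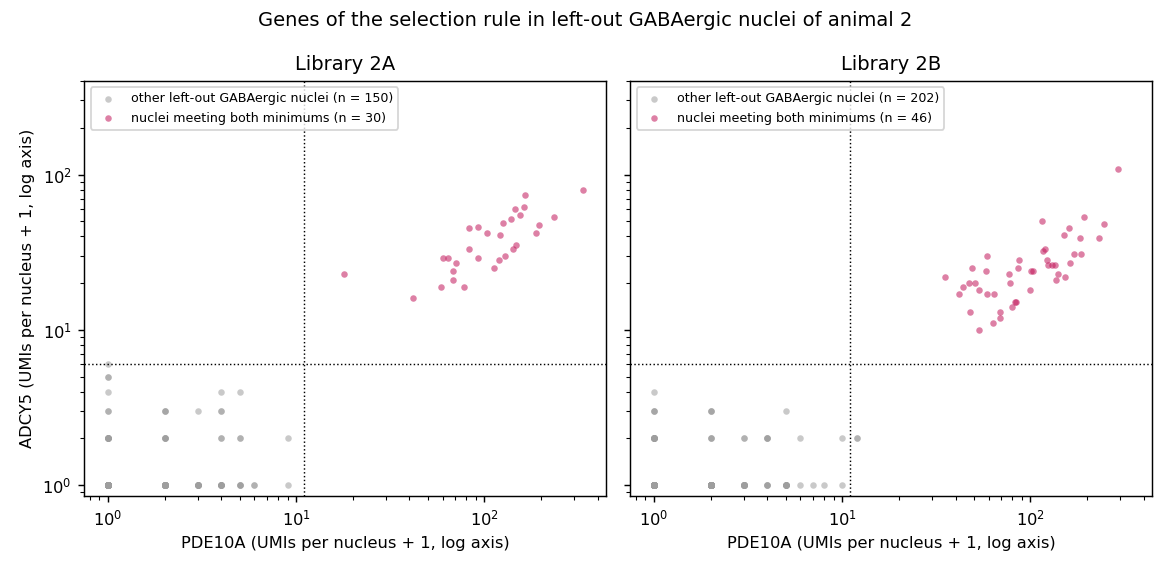
UMIs of PDE10A (x axis) and ADCY5 (y axis) per nucleus, each with 1 added and on a log axis, in the ambiguous GABAergic nuclei of libraries 2A and 2B, with dotted lines at the minimums of 10 and 5 UMIs. The 30 and 46 striatal-gene nuclei sit at 17 or more UMIs of PDE10A and 9 or more of ADCY5, apart from the 150 and 202 other nuclei.

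The striatal-gene nuclei held 1287 to 17952 UMIs, with a median of 4701.5 UMIs and 1988 genes, against a median of 5951 UMIs in the labelled GABAergic nuclei of animal 2 and 1719 in the other ambiguous GABAergic nuclei. Scrublet, which scores a nucleus by its likeness to simulated doublets, made 0 doublet calls among the 76. Their median doublet score was 0.0579 and the highest 0.191, against a median of 0.0235 in labelled GABAergic nuclei. Leaving out all nuclei called doublets gave 100 higher and 17 lower genes, by the limits described below, against 98 and 17. Whether doublets without a call had a part was not tested. Libraries shared 16 to 30 cell barcodes per pair, at most 0.348% of the smaller library, and 0 of these belonged to the 76 nuclei.

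UMIs were summed over the nuclei of a set and divided by the set's total, and levels are given on the usual CPM scale, in the order library 2A, library 2B. The sums held 188958 and 237568 UMIs, so that 1 UMI corresponded to 5.29 and 4.21 CPM. A gene was called higher when it lay at least 4-fold above the highest of the 5 labelled GABAergic subclasses (Pvalb, Sst, Vip, Lamp5 and Frem1) of the same library in both libraries, with at least 10 UMIs in each. By this rule 98 of 2959 genes were higher (3.31%), of which 71 had a gene symbol. The nuclei were clustered by the authors on the same counts, so these numbers describe the nuclei and test nothing. A gene was called lower when it lay at least 4-fold below the lowest subclass in both libraries, which held for 17 of 2411 genes (0.705%), 14 of them with a symbol. Of the 98 higher genes, 31 also lay at least 4-fold above all 13 labelled neuronal subclasses, glutamatergic subclasses included. Those on the gene lists were DRD2, PPP1R1B, STRIP2, MEIS1, RARB, EBF1, GPR139 and SCN4B.

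Both dopamine receptor genes of striatal projection neurons were among the higher genes. DRD2, the receptor of the indirect pathway, stood at 302 CPM in library 2A and 130.5 CPM in library 2B (exact Poisson 95% intervals 228 to 391 and 88.7 to 185), against 6.24 CPM in Frem1 and 3.22 CPM in Vip, the highest GABAergic subclasses. Its level in library 2A was above that in library 2B, with intervals that did not overlap. DRD1, the receptor of the direct pathway, stood at 58.2 and 63.1 CPM, against 11.8 and 9.83 CPM in Lamp5. DRD1 rested on few molecules, 11 and 15 UMIs, and among glutamatergic subclasses it reached 37.1 and 36.5 CPM in L5NP. Leaving out the nucleus with most UMIs of DRD1 in each library took its lead from 4.94-fold to 3.73-fold, under the limit. The D3 receptor gene DRD3 was at 0 UMIs in both libraries and DRD5 likewise.

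Several genes on a list of striatal projection neuron signalling, not all of them carriers of the dopamine signal, were high as well. PPP1R1B stood at 79.4 and 181 CPM, in 11 of 30 and 30 of 46 nuclei, against at most 1.47 CPM in Lamp5 and 3.66 CPM in Frem1. After thinning to 2000 UMIs it kept 6 and 18 UMIs and lay at least 2.97-fold and at least 11.0-fold above, bounds set by the floor of 3 UMIs, so that its call was not kept in library 2A. PHACTR1, which binds actin and protein phosphatase 1, stood at 10256 and 11752 CPM, against 611 and 769.7 CPM in Lamp5. The first was thus carried by few UMIs per nucleus (at most 3) and the second by many. PTPN5, the striatum-enriched phosphatase STEP, stood at 804 and 825 CPM against 187 and 159 CPM in Sst, and ARPP21, a phosphoprotein regulated by cAMP, at 487 and 459 CPM against 60.4 CPM in Lamp5 and 58.5 CPM in Frem1. ARPP21 was higher in the glutamatergic subclass IT_C, at 638 and 554 CPM. STRIP2, a member of the striatin phosphatase complex, reached 757 and 627 CPM against 30.9 and 42.6 CPM in Lamp5. ACTN2, an alpha-actinin that binds actin in spines, reached 280.5 and 354 CPM against 20.7 and 17.7 CPM in Vip. SH3RF2, a ring finger gene, reached 286 and 261 CPM against 28.1 and 12.8 CPM in Frem1. Of the 22 genes of this signalling list with a symbol and outside the rule, 14 held enough UMIs and 9 of these were higher, beside 3.31% of all genes. Their median log2 ratio to the labelled GABAergic nuclei, summed and with 10 CPM added, was 3.52, beside -0.11 over all 3267 genes measured in this way. The list was written with results of these data known.

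The other 5 measured genes of the list also lay above the highest GABAergic subclass in both libraries, without reaching 4-fold in both. GNAL, the G protein subunit that couples DRD1 to adenylyl cyclase, stood at 1117 and 1246 CPM against 488 CPM in Pvalb and 576 CPM in Lamp5. Its partner GNG7 stood at 127 and 114 CPM against 25.6 CPM in Sst and 34.7 CPM in Frem1. The phosphodiesterase gene PDE7B stood at 2567 and 2715 CPM, with 899 and 936 CPM in Vip, and the other measured members were PDE2A, another phosphodiesterase gene, at 741 and 719.8 CPM and the anoctamin gene ANO3 at 1090.2 and 1254 CPM. GPR6, an orphan receptor of the indirect pathway, was too sparse to be measured and had 5 and 1 UMIs.

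**Figure D2:**
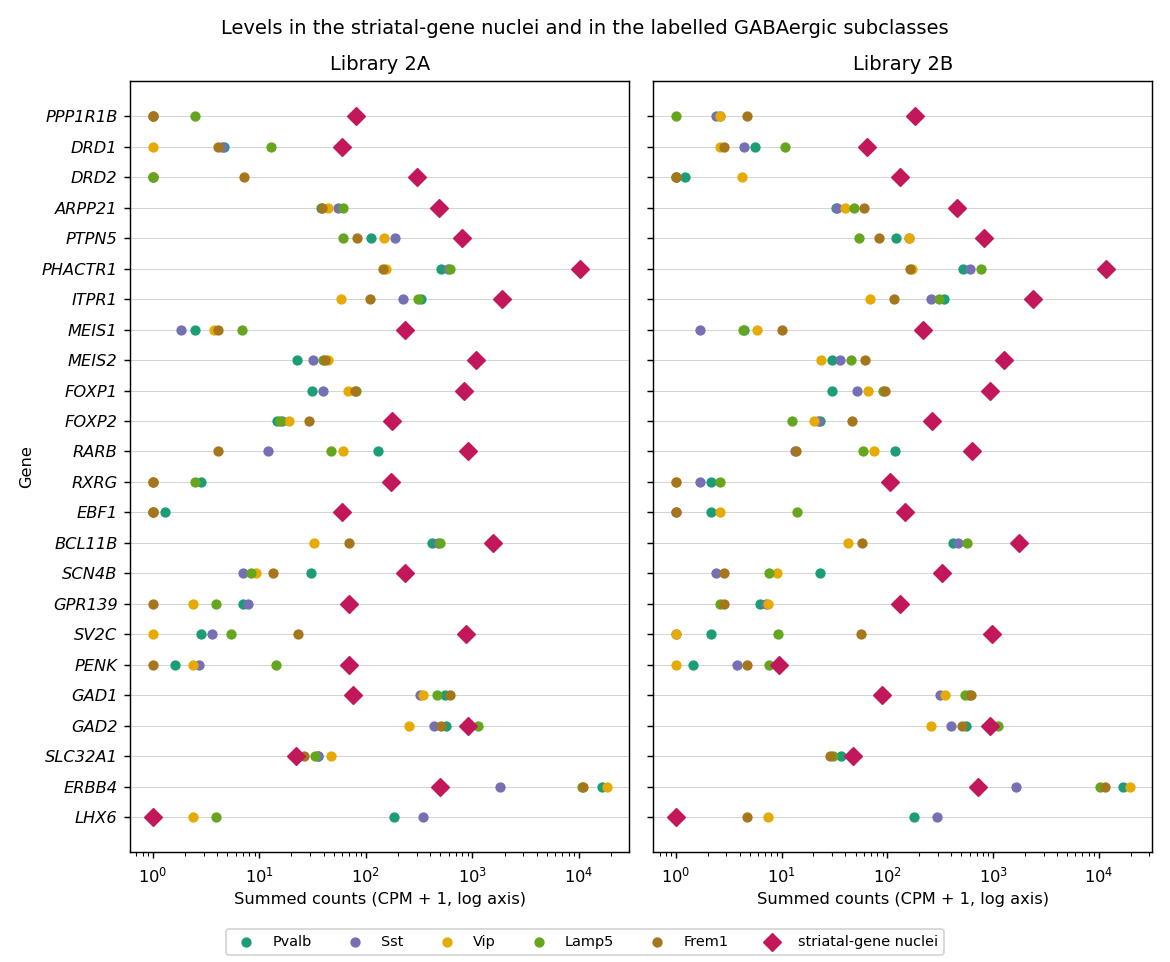
Summed level of 24 genes (CPM with 1 added, log axis) in the striatal-gene nuclei (diamonds) and in the 5 labelled GABAergic subclasses (circles) of libraries 2A and 2B. PPP1R1B, DRD1, DRD2 and the transcription factor genes MEIS1, MEIS2, FOXP1 and RARB lie to the right of every subclass in both libraries, while GAD1 and ERBB4 lie to the left of the lowest subclass.

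Transcription factor genes of the lateral ganglionic eminence and of striatal projection neurons formed a further group. MEIS2, a homeobox gene of that lineage, stood at 1079.6 and 1259 CPM, against 42.8 CPM in Vip and 60.3 CPM in Frem1, and had a UMI in 25 of 30 and 46 of 46 nuclei. Its relative MEIS1 stood at 233 and 215 CPM, against 5.89 CPM in Lamp5 and 9.14 CPM in Frem1. The forkhead gene FOXP1 reached 831 and 934 CPM, against 79.5 CPM in Lamp5 and 93.2 CPM in Frem1. Its relative FOXP2, studied for its part in vocal learning, reached 175 and 261 CPM, against 28.1 and 45.7 CPM in Frem1. Except for MEIS1, at most 7.66 and 7.56 CPM in IT_A among glutamatergic subclasses, these factors were also high in the corticothalamic subclass L6CT. MEIS2 stood there at 575 and 623 CPM, FOXP1 at 618 and 641 CPM, and FOXP2 at 1487 and 1586 CPM, above the striatal-gene nuclei.

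The 352 other ambiguous GABAergic nuclei of animal 2 carried MEIS2 as well, at a higher level, 3064 and 3313 CPM, and so did the 302 of animal 1, at 2931 and 3006 CPM. ARPP21 was also higher there than in the striatal-gene nuclei, at 617 and 538 CPM, and MEIS1 stood at 22.4 and 43.9 CPM, between the labelled GABAergic subclasses and the striatal-gene nuclei. Others of the higher genes were low in them. RARB stood at 12.8 and 2.75 CPM in the other ambiguous nuclei of animal 2, SV2C at 0 and 5.49 CPM, and DRD2 at 3.20 and 0 CPM. FOXP1 stood there at 89.5 and 143 CPM, above the highest GABAergic subclass, and PHACTR1 at 265 and 253 CPM, below it. GAD1 was high in them, at 610.3 and 612 CPM, and GAD2 low, at 134 and 140.0 CPM, the reverse order of that in the striatal-gene nuclei.

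The level was spread over the nuclei for several of these genes. SV2C, described below, had a UMI in 29 of 30 and 44 of 46 nuclei, FOXP1 in 30 of 30 and 44 of 46 nuclei, RARB in 30 of 30 and 43 of 46 nuclei and STRIP2 in 28 of 30 and 40 of 46 nuclei. Among labelled GABAergic nuclei the shares were 1.84 and 1.49% for SV2C, 23.3 and 21.7% for FOXP1, 29.4 and 28.5% for RARB and 7.70 and 8.46% for STRIP2. Oligodendrocytes had a UMI of SV2C in 0.127 and 0.102% of nuclei and of RARB in 0.253 and 0.409%, at the lower depth of 2115 and 1766 UMIs, but of MEIS2 in 52.0 and 51.2%, of FOXP1 in 41.4 and 35.01% and of MEIS1 in 29.4 and 25.9%. The largest number of UMIs in a single striatal-gene nucleus was 31 for MEIS2, 22 for RARB and 22 for SV2C.

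Retinoic acid receptors act in the development of the striatum, and 2 of their genes were high too. RARB stood at 905 and 627 CPM against 129 and 117 CPM in Pvalb, and RXRG at 169 and 105 CPM against 1.81 CPM in Pvalb and 1.64 CPM in Lamp5. EBF1, a factor needed for direct pathway neurons, stood at 58.2 and 147 CPM against 0.302 CPM in Pvalb and 13.1 CPM in Lamp5. With FOXP1, FOXP2, MEIS1 and MEIS2 this made 7 higher genes among the 13 measured factors of the list, beside 3.31% of all genes, and their median log2 ratio was 2.96, beside -0.11 over all genes. BCL11B (CTIP2), used as a marker of these neurons, stood at 1556 and 1751 CPM or 3.12 and 3.09 fold above the highest subclass, short of the limit. PBX3 stood at 629.8 and 758 CPM against 356 and 428 CPM in Frem1.

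Several factors of the same lineage were scarce or not seen. ZNF503, SP8 and SP9 had 0 UMIs in both libraries, and ISL1, a factor of direct pathway neurons and cholinergic neurons, had 0 and 1 UMIs. SIX3, a factor of the indirect lineage, had 3 and 4 UMIs, beside 0 CPM in every labelled GABAergic subclass. IKZF1 had 1 and 0 UMIs, against 12.0 CPM in Sst and 16.5 CPM in Frem1. At 1 UMI per 5.29 or 4.21 CPM such low genes were at the limit of this depth. Of the 29 listed factors with a symbol, 9 were at 0 in both libraries.

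Receptors for other transmitters gave a mixed picture. Only 4 of the 45 neuromodulator receptor genes with a symbol held at least 10 UMIs in each library, and 3 of these were higher (beside 3.31% of all genes), DRD1, DRD2 and GPR139. GPR139, a receptor for aromatic amino acids found in striatum and habenula, stood at 68.8 and 130.5 CPM against 6.84 CPM in Sst and 6.44 CPM in Vip. The other was HTR4, the serotonin 4 receptor, at 116 and 88.4 CPM against 92.4 and 91.7 CPM in Vip. GLP1R, the receptor of glucagon-like peptide 1, fell short of the minimum with 10 and 7 UMIs, but each UMI lay in a nucleus of its own, in 10 of 30 and 7 of 46 nuclei, and the highest labelled subclass was at 0.603 CPM in Pvalb and 1.61 CPM in Vip. The muscarinic receptor gene CHRM4 and the opioid receptor gene OPRM1 had 0 UMIs in both libraries, where OPRM1 stood at 63.5 and 72.4 CPM in Vip nuclei.

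Of 16 measured glutamate receptor genes, 1 was higher and 0 of 11 were lower, and of the GABA and glycine receptor genes 0 of 10 were higher and 0 of 8 lower. With 3.31% of all genes higher and 0.705% lower, these counts are near the background. The gene called was GRM3, a metabotropic receptor that lowers cAMP, at 492 and 879.7 CPM against 46.8 and 64.0 CPM in Frem1, although among glutamatergic subclasses it reached 1242 and 1142 CPM in IT_B. The AMPA receptor gene GRIA2 at 2164 and 2500.3 CPM and the NMDA receptor gene GRIN2B at 1836 and 1957 CPM lay within the range of the 5 subclasses. GABRA4, a GABA receptor subunit abundant in striatum, stood at 269.9 and 404 CPM against 152 and 129 CPM in Lamp5. GRIN2A, at 212 and 126 CPM, lay below 1066 and 1153 CPM in Lamp5 and above the lowest subclass.

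Peptide genes were sparse. PENK, the enkephalin precursor of indirect pathway neurons, stood at 68.8 CPM in library 2A and 8.42 CPM in library 2B with 13 and 2 UMIs, against 13.3 and 6.55 CPM in Lamp5. The libraries thus differed, and in library 2B its interval (1.02 to 30.4 CPM) covered the level of Lamp5. PDYN, the dynorphin precursor of direct pathway neurons, had 4 and 1 UMIs, and none of the 14 peptide genes with a symbol reached the minimum. NTS, the neurotensin gene, had 9 and 5 UMIs, against 2.76 CPM in Vip and 2.06 CPM in Sst.

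Among ion channel genes, SCN4B, the sodium channel beta subunit that shapes resurgent current in striatal and cerebellar neurons, stood at 233 and 324 CPM against 29.6 and 22.2 CPM in Pvalb. ITPR1, the inositol trisphosphate receptor of internal calcium stores, stood at 1895 and 2395 CPM against 328 and 340.2 CPM in Pvalb. These were the 2 higher genes of 19 measured sodium and calcium channel genes. Of 19 measured potassium channel genes, 2 were higher as well, beside 3.31% of all genes, and nothing is read from such small counts. KCNK2, a leak channel, stood at 439 and 261 CPM against 20.5 and 19.5 CPM in Pvalb, and KCNH4, a voltage-gated channel known from the striatum, at 68.8 and 75.8 CPM against 5.13 CPM in Sst and 7.31 CPM in Frem1. KCNIP1, a subunit that modulates A-type channels in interneurons, was the 1 lower gene of the 13 measured on the potassium channel list, at 74.1 and 37.9 CPM against a lowest level of 433 and 492 CPM in Sst. KCNK9, a leak channel gene outside that list and named after its values were seen, was called lower as well, at 68.8 and 37.9 CPM against 364 and 385 CPM in Vip. KCNJ3, an inward rectifier opened by G proteins, stood below the lowest subclass without passing the limit in both libraries, at 201 and 126 CPM against 531 and 514 CPM in Sst. KCND2, an A-type channel gene, stood at 4339.6 and 5396 CPM, beside 4433 and 4890.4 CPM in Sst.

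Ranked by the smaller of the folds in both libraries, the first 12 higher genes with a symbol included 5 outside the gene lists. The order depends on the floor of 3 UMIs, which made the folds of DRD2 lower bounds (at least 32.2 and at least 23.8). SLC24A4, a sodium, potassium and calcium exchanger, came first at 1006 and 770.3 CPM, 62.1 and 35.1 fold above 16.2 CPM in Lamp5 and 21.9 CPM in Frem1. After DRD2 and MEIS1 came DACH1, a transcription cofactor gene, which stood at 423 and 594 CPM against 19.0 CPM in Pvalb and 22.6 CPM in Sst. SV2C, a synaptic vesicle protein of the basal ganglia, stood at 868 and 972 CPM in 29 of 30 and 44 of 46 nuclei, against 21.8 and 54.8 CPM in Frem1. In glutamatergic subclasses SV2C reached at most 2.49 CPM in IT_B and 2.88 CPM in L5NP. The kinase gene SGK3 stood at 238 and 135 CPM against 8.84 CPM in Lamp5 and 7.31 CPM in Frem1, and MOB3B, of the MOB family of kinase regulators, at 429 and 349 CPM against 13.7 CPM in Sst and 23.8 CPM in Frem1. MOB3B was at 401 and 388 CPM in L5NP, so that its lead did not hold against glutamatergic subclasses. Against all 13 neuronal subclasses, DRD2, MEIS1, SV2C and STRIP2 of these 12 stayed at least 4-fold higher.

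The 8 genes with the largest deficit were present in all 5 labelled GABAergic subclasses. FRMPD1, a scaffold protein, stood at 21.2 and 21.0 CPM, 9.87 and 8.95 fold below the lowest GABAergic subclass at 209 CPM in Pvalb and 188 CPM in Lamp5. STARD13 held 1 and 2 UMIs, where the lowest subclass stood at 128 and 120.0 CPM in Sst. The actin regulator gene NHS and the zinc finger gene ZBTB16 held 4 and 2 UMIs and 4 and 4 UMIs, against lowest subclass levels of 156 CPM in Vip and 131 CPM in Sst and 147 and 133 CPM in Sst. TRPC4, a cation channel, and TMEM65, a mitochondrial protein, likewise had few UMIs, 1 and 5 and 0 and 2. TCF4, an E protein of the basic helix-loop-helix family, stood at 249 and 185 CPM against 1459 and 1575 CPM in Lamp5, and the adhesion gene CHL1 at 74.1 and 75.8 CPM against 455 CPM in Lamp5 and 481 CPM in Pvalb. ZBTB16 alone of the 8 kept a 4-fold deficit against the lowest glutamatergic subclass in both libraries, at 4.38 and 4.95 fold. The smaller fold was 3.90 for FRMPD1, 2.16 for TCF4 and at least 1.75 for TMEM65, the last a bound set by the floor of 3 UMIs. The deficit of STARD13, NHS, TRPC4 and CHL1 did not reach 4-fold either. The lowest glutamatergic subclass lay below the striatal-gene nuclei for NHS in both libraries (10.2 CPM in IT_C and 7.91 CPM in IT_D), for TRPC4 and CHL1 in library 2B only, and for STARD13 in neither. After thinning to 2000 UMIs, CHL1 (6.77-fold) and TCF4 (8.58-fold) kept a 4-fold deficit. The other 6 could not be placed at that depth, since the floor of 3 UMIs stood at 51.7 CPM in library 2A and allowed no 4-fold deficit. Outside these 8, TCF12, another E protein, stood at 212 and 248 CPM against 1116 and 1079 CPM in Frem1, and ZEB2, a factor of migrating cortical interneurons, at 42.3 and 29.5 CPM against 211 CPM in Lamp5 and 291 CPM in Sst.

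Genes of GABA synthesis and transport bore on the class label, GABAergic, with mixed values. GAD2, a GABA-synthesizing enzyme, stood at 905 and 930.3 CPM, within the range of the labelled subclasses, and had a UMI in 69 of 76 nuclei. GAD1, the other such enzyme, stood at 74.1 and 88.4 CPM, against a lowest subclass level of 321 and 314 CPM in Sst, and had a UMI in 15 of 76 nuclei. In 5 nuclei neither GAD gene had a UMI. None of the 4 measured genes of the list was called higher or lower, and SLC32A1, the vesicular GABA transporter, rested on 4 and 11 UMIs.

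Of the cortical interneuron list 0 of 2 genes measured in that direction were called lower, beside 0.705% of all genes. LHX6, a factor of interneurons from the medial eminence, had 0 UMIs in both libraries, against 342 and 295 CPM in Sst, and VIP, CALB2 and FREM1 had 0 as well. ERBB4, a receptor of cortical interneurons, stood at 492 and 711 CPM, against a lowest subclass level of 1817 and 1645 CPM in Sst, short of the limit. Summed over the 18 marker genes with a symbol, ERBB4 among them, the level was 889 and 1120 CPM, against 5993 to 21323 CPM and 6107 to 22949 CPM over the 5 subclasses.

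Markers of other cell types were far below the level of those types and near that of labelled GABAergic nuclei. The 8 glutamatergic marker genes summed to 111 and 130.5 CPM, against at least 502 and 541 CPM in the glutamatergic subclasses. For the 4 oligodendrocyte genes the sums were 89.97 and 75.8 CPM, against 15598 and 15576 CPM in oligodendrocytes. The 5 astrocyte genes gave 95.3 and 84.2 CPM, against 19015 and 18508 CPM in astrocytes, with GFAP and GJA1 at 0. The 4 microglia genes had 0 UMIs in both libraries, the 2 genes of oligodendrocyte precursors 1 UMI in each, and the 2 endothelial genes 3 UMIs in each. The defining genes of striatal cholinergic neurons, CHAT, SLC5A7 and SLC18A3, had 0 UMIs too, and 8 of 10 genes of striatal interneurons were at 0 in both.

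**Figure D3:**
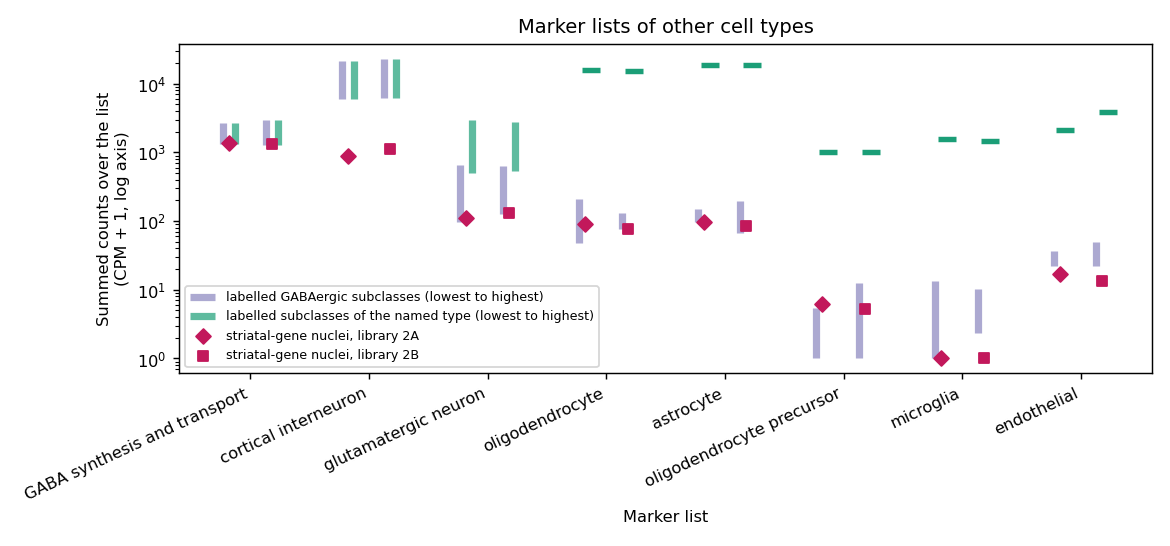
Summed level of each marker list (CPM with 1 added, log axis) in the striatal-gene nuclei of libraries 2A (diamonds) and 2B (squares), with the range over labelled GABAergic subclasses (purple) and the level or range of the named type (green). The striatal-gene nuclei lie below every GABAergic subclass for the cortical interneuron list, and for the glial lists they lie far below the named type (89.97 and 75.8 against 15598 and 15576 CPM for oligodendrocytes).

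Genes of striatal compartments gave few measured members. Of the striosome list 2 of 6 genes with a symbol were measured and 0 were higher, with BACH2 at 508 and 602 CPM against 240.2 CPM in Sst and 280.2 CPM in Pvalb and the striosome marker OPRM1 at 0. Of the matrix list 4 of 7 were measured and 0 were higher, and CALB1, a calcium-binding protein of the matrix, had 6 and 20 UMIs in 6 of 30 and 12 of 46 nuclei. Of the ventral striatum list 2 of 6 were measured and both were higher, beside 3.31% of all genes, and with so few measured genes nothing is read from these 3 lists. DLK1, a Notch ligand homologue, stood at 238 and 215 CPM against 26.5 and 36.3 CPM in Sst, while WFS1, a protein of the endoplasmic reticulum, at 52.9 and 54.7 CPM against 5.52 CPM in Vip and 3.67 CPM in Pvalb. WFS1 rested on 10 and 13 UMIs, of which 5 and 3 lay in 1 nucleus of each library, and its call was not kept without these. Of the list of eccentric striatal projection neurons, OTOF, the otoferlin gene, was measured, at 265 and 311 CPM against 72.7 and 50.05 CPM in Sst.

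The dopamine receptor genes divided the striatal-gene nuclei. DRD1 alone was seen in 19 of 76 nuclei (25%, exact Clopper-Pearson interval 15.8 to 36.3%), DRD2 alone in 22 (28.9%, 19.1 to 40.5%), both in 0 (upper limit 4.74%, or 3.95% by a floor of 3 counts), and neither in 35. Each DRD1-only nucleus held 1 to 3 UMIs of DRD1, and each DRD2-only nucleus 1 to 13 UMIs of DRD2. In library 2A the counts were 7 with DRD1 alone, 13 with DRD2 alone and 10 with neither. In library 2B they were 12, 9 and 25, so DRD2-only nuclei led in library 2A and DRD1-only nuclei in library 2B, with overlapping intervals of each share.

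In labelled GABAergic nuclei of animal 2 the same genes were rare. DRD1 alone was seen in 55 of 2075 labelled GABAergic nuclei (2.65%), and DRD2 alone in 5 (0.241%), at a median depth of 5951 UMIs. Oligodendrocytes, which should lack both genes, had DRD1 in 26 of 1767 nuclei (1.47%) and DRD2 in 2 (0.113%) at a median of 1909 UMIs. At a common depth of 2000 UMIs the DRD1 share of labelled GABAergic nuclei was 0.851% of 1880 (0.487 to 1.38%). It lay between the shares of astrocytes (0.612% of 654, 0.167 to 1.56%) and oligodendrocytes (1.36% of 807, 0.682 to 2.43%), with overlapping intervals. Over the 5 subclasses together the DRD1 share could thus not be told from that of these glia. In Lamp5 alone it was 4 of 182 nuclei (2.20%, 0.602 to 5.53%), an interval that held the oligodendrocyte share, and 13 of 202 nuclei (6.44%) without thinning. Thinned to the same depth, which left out 3 of the 76, DRD1 alone remained in 6 of 73 striatal-gene nuclei (8.22%) and DRD2 alone in 14 (19.2%), both in 0. The DRD2 shares at that depth were 0.106% in labelled GABAergic nuclei, 0.124% in oligodendrocytes and 0.306% in astrocytes. All 6 thinned nuclei with DRD1 lay in library 2B, and library 2A had 0 of 29. The nuclei with neither gene were the shallower ones, with a median of 4047 UMIs against 5441 in DRD1-only and 5276.5 in DRD2-only nuclei. Their state could not be read from these 2 genes at this depth.

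**Figure D4:**
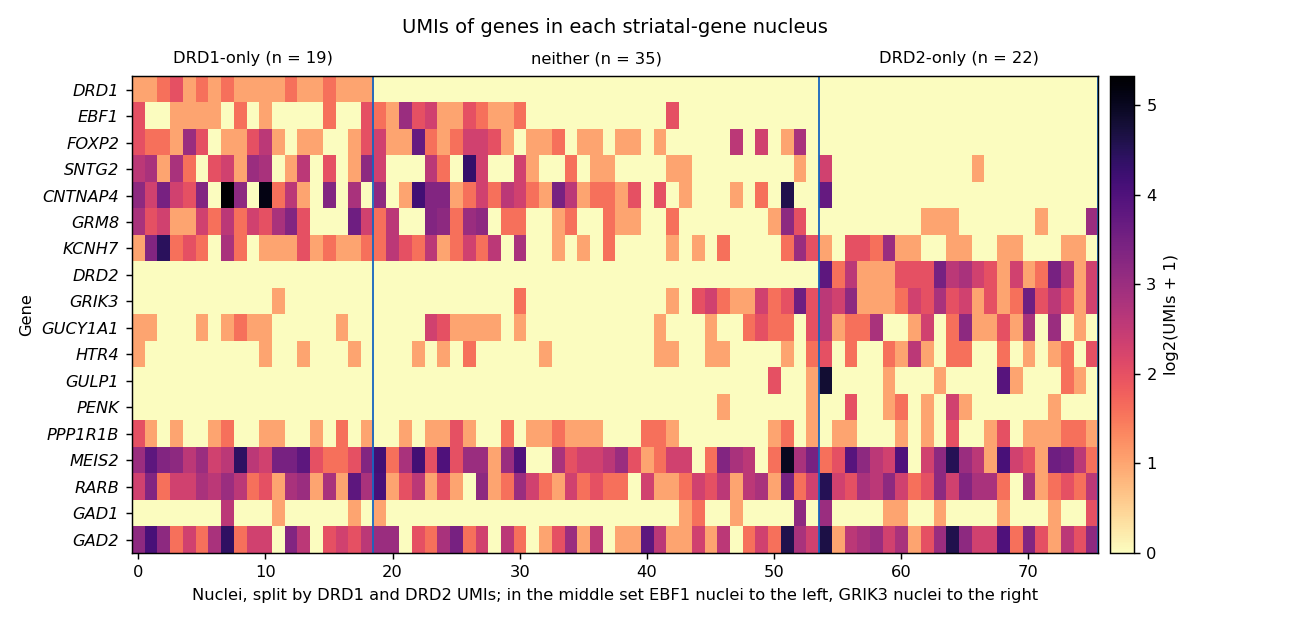
UMIs (log2 with 1 added, color scale) of 18 genes in each of the 76 striatal-gene nuclei, ordered as 19 DRD1-only nuclei, 35 with neither receptor gene and 22 DRD2-only nuclei. GRIK3 fills all 22 DRD2-only nuclei and 1 of the 19 DRD1-only nuclei, EBF1 and FOXP2 are empty in the DRD2-only nuclei, and MEIS2 and RARB run through all 3 sets.

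Further genes differed between these sets. A gene was called when it lay at least 3-fold higher in the same set in both libraries, with at least 10 UMIs in that set, and this held for 6 of 2343 genes toward DRD1-only nuclei (0.256%, 5 with a symbol) and 4 of 2315 toward DRD2-only nuclei (0.173%, all 4 with a symbol). The gene with the largest difference was GRIK3, a kainate receptor subunit known from the indirect pathway. It had a UMI in 22 of 22 DRD2-only nuclei and 1 of 19 DRD1-only nuclei, at 586 CPM (461 to 733) against 8.11 CPM (0.205 to 45.2), here with both libraries summed and exact Poisson intervals. GUCY1A1, a subunit of the nitric oxide receptor guanylyl cyclase, had 393 CPM (293 to 517) in DRD2-only nuclei against 73.0 CPM (33.4 to 138). HTR4 had 208 CPM (137 to 303) against 32.4 CPM (8.83 to 83.0). GULP1, an adaptor of engulfment, had 47 UMIs in DRD2-only nuclei and 0 in DRD1-only nuclei, but 27 of 29 and 14 of 18 lay in 1 nucleus of each library.

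Toward DRD1-only nuclei the genes were SNTG2, CNTNAP4, GRM8, FOXP2 and KCNH7. SNTG2, a syntrophin scaffold, was seen in 15 of 19 DRD1-only and 2 of 22 DRD2-only nuclei, at 478 CPM (364 to 617) against 38.5 CPM (12.5 to 89.9). CNTNAP4, an adhesion protein of the neurexin family, was seen in 14 of 19 and 1 of 22, and all 12 of its UMIs in DRD2-only nuclei lay in 1 nucleus. FOXP2 was seen in 15 of 19 and 0 of 22, at 284 CPM (198 to 395) against 0. GRM8, a metabotropic glutamate receptor, stood at 551 CPM (428 to 699) against 84.8 CPM (42.3 to 152), and KCNH7, a potassium channel, at 478 CPM (364 to 617) against 185 CPM (119 to 275). When the nucleus with most UMIs of each gene was left out in each library, SNTG2, CNTNAP4, GRIK3 and GUCY1A1 kept a 3-fold lead in both. The smaller fold was 2.87 for GRM8 and 1.98 for KCNH7, under the limit. For HTR4, with 1 UMI in DRD1-only nuclei of library 2A, it was at least 2.84. For FOXP2, with 0 UMIs in DRD2-only nuclei, it was at least 2.70. Both are bounds set by the floor of 3 UMIs, so that these 2 genes could not be placed against the limit. Thinning to 2000 UMIs raised that floor to 214 CPM in the DRD1-only nuclei of library 2A, so that none of the 4 genes toward DRD2-only nuclei could pass the limit there, and their calls could not be checked at that depth. GRIK3 then stood at 423 and 667 CPM in DRD2-only nuclei, with 0 UMIs in DRD1-only nuclei of either library. Toward DRD1-only nuclei SNTG2, CNTNAP4 and GRM8 still met the limit, and KCNH7 (1.36-fold) and FOXP2 (2.73-fold) could not reach it in library 2B, by the same floor. EBF1, too sparse to pass the limit in both libraries, was seen in 9 of 19 DRD1-only nuclei and 0 of 22 DRD2-only nuclei. PENK was likewise seen in 0 of 19 and 7 of 22. Of the direct pathway list 3 of 8 genes with a symbol were measured against the GABAergic subclasses and 2 were higher, DRD1 (which did not keep its call without its top nuclei) and EBF1, beside 3.31% of all genes. Of the indirect pathway list 4 of 7 were measured and 1 was higher, DRD2, beside the same 3.31%. GRIK3, on the latter list, stood at 318 and 227 CPM over all striatal-gene nuclei, below 1739 and 1659 CPM in Sst.

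Genes shared by both kinds of striatal projection neuron lay close in the DRD1-only and DRD2-only nuclei. PPP1R1B stood at 113 CPM (62.0 to 190.4) and 146 CPM (88.2 to 229), MEIS2 at 1127 CPM (947 to 1330.5) and 1156 CPM (978 to 1357), and RARB at 746 CPM (601 to 915) and 855 CPM (704 to 1030.2). FOXP1 stood at 778 CPM (630.4 to 950.3) and 855 CPM (704 to 1030.2). The intervals of each of these 4 pairs overlapped.

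**Figure D5:**
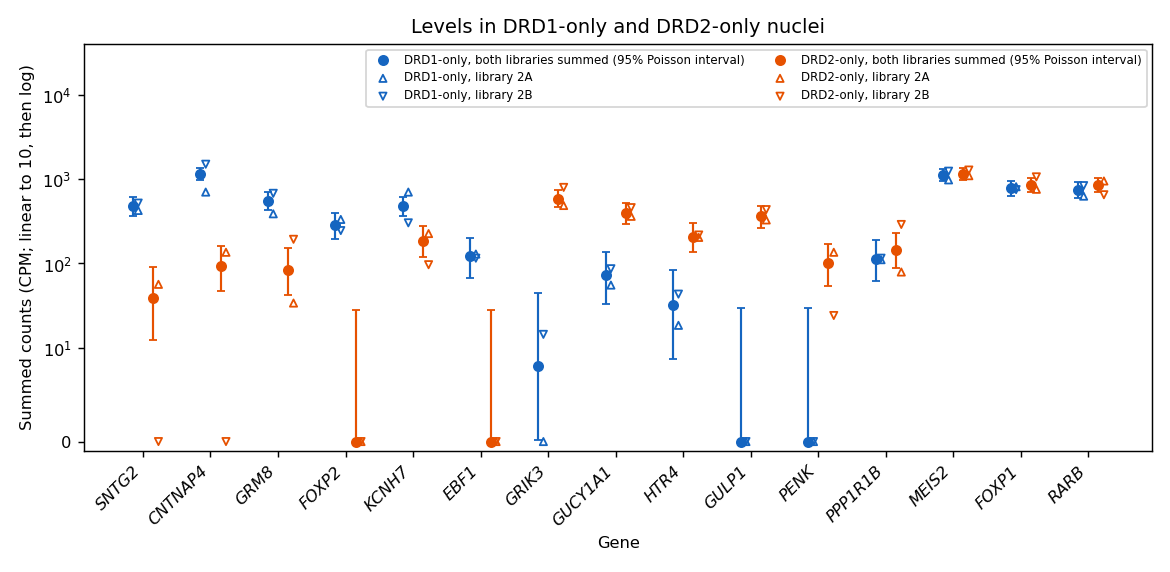
Summed level (CPM, axis linear to 10 and log above) of 15 genes in the DRD1-only (blue) and DRD2-only (orange) nuclei, as both libraries summed with the exact 95% Poisson interval (filled circles) and in each library (open triangles). SNTG2, CNTNAP4, GRM8, FOXP2, KCNH7 and EBF1 lie higher in DRD1-only nuclei, GRIK3, GUCY1A1, HTR4, GULP1 and PENK in DRD2-only nuclei, and the intervals of PPP1R1B, MEIS2, FOXP1 and RARB overlap.

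The 35 nuclei with neither receptor gene held genes of both sides. EBF1 was seen in 13 of 35 and GRIK3 in 12 of 35, with 2 nuclei holding both and 12 neither. FOXP2 was seen in 23 of 35, at 346 CPM. Over all 76 nuclei EBF1 and GRIK3 were seen together in 2, EBF1 alone in 20 and GRIK3 alone in 33. FOXP2 and GRIK3 were seen together in 5 nuclei, FOXP2 alone in 33 and GRIK3 alone in 30.

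Nuclei of other labels also met the minimums for PDE10A and ADCY5. In animal 2, 60 of 2075 labelled GABAergic nuclei did so (2.89%), at a median of 13785 UMIs, as did 1100 of 11065 labelled glutamatergic nuclei (9.94%). In those 60 nuclei PDE10A stood at 1617 CPM against 19996 CPM in the 76 striatal-gene nuclei, with both libraries summed. Their PPP1R1B level was 1.14 CPM against 136, and their MEIS2 level 21.6 CPM against 1179. In the 1100 glutamatergic nuclei PPP1R1B stood at 5.80 CPM, while MEIS2 stood at 438 CPM and FOXP1 at 418 CPM, against 889 CPM of FOXP1 in the striatal-gene nuclei. The minimums are counts per nucleus, so deeper nuclei reached them at a lower level.

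Across genes, the likeness to labelled neuronal subclasses spread over a narrow range, and glutamatergic and GABAergic subclasses were mixed in their order. Over the 30800 genes, the Spearman correlation of the summed levels with the 13 neuronal subclasses ranged from 0.777 (L6b) to 0.798 (IT_D) in library 2A and from 0.790 (L6b) to 0.809 (L5PT) in library 2B. Among GABAergic subclasses Sst came closest (0.796 and 0.806) and Pvalb was lowest in both libraries (0.785 and 0.796). The striatal-gene nuclei of both libraries correlated with each other at 0.824. These correlations are across genes, which are not independent replicates, and the sums differ in their numbers of nuclei, from 21 in L6b to 2289 in IT_A in library 2A.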

How the data were processed

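Single-nucleus 3' RNA-seq of V1 was analysed in 4 libraries from 2 animals. The deposited matrices hold UMI counts per gene and barcode, which the authors made with Cell Ranger (6.1.1 in the submitters' processing notes, 7.1.0 in the matrix headers) on ASM229v1, with introns counted and gene ends extended. Class, subclass and cluster filter came from the deposited cell table, and the doublet score is a deposited fraction that the authors computed with Scrublet. Of 30800 genes, 11590 had a symbol. UMIs were summed per library and set and scaled to CPM, with exact Poisson or Clopper-Pearson 95% intervals, which cover counting error only. As all 76 nuclei came from 1 animal, no model was fitted and no p-value computed. Folds were taken with a floor of 3 counts where a reference had fewer, and likeness used log2 of CPM plus 10. Depths were compared after thinning to 2000 UMIs. Doublet calls were kept as deposited. The scripts were tested on simulated data. Named genes are those of the rule, its 5 marker genes, the first 12 higher and 8 lower genes by the smaller fold of both libraries, up to 5 genes per direction between DRD1-only and DRD2-only nuclei, and genes of the 23 lists (328 genes, 266 with a symbol). The nuclei, lists and this rule were chosen with earlier results of these data known, and KCNK9, TCF12 and ZEB2 were added after their values were seen. The alternatives tried were the UMI minimums, fold, count minimum, reference, depth, doublets, scaling and library. Python 3.11.15, numpy 2.4.6, pandas 2.3.3, scipy 1.17.1 and matplotlib 3.10.9 were used. Some genes of the lists are not reported here.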

Additional observations from a re-analysis of the deposited data

How the results depend on the processing

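Of 295 values recomputed under an alternative, 176 moved by less than their limit, 113 moved beyond it and 6 crossed to the other side of 1-fold. The 98 higher genes became 210 at 2-fold, 39 at 8-fold, 64 with at least 20 UMIs, 184 against the labelled GABAergic nuclei summed, 31 against every neuronal subclass and 60 after thinning to 2000 UMIs. The 17 lower genes became 97 at 2-fold, 2 at 8-fold, 186 against the GABAergic nuclei summed, 1 against every neuronal subclass, 38 in library 2A alone and 58 in library 2B alone. Against every neuronal subclass the smaller fold turned to 0.900 for MOB3B, and among the lower genes to 0.544 for STARD13 (by the floor of 3 UMIs alone), 0.483 for NHS, 0.116 for TRPC4 and 0.803 for CHL1. DRD1 had a smaller fold of 0 after thinning, since none of its UMIs remained in library 2A. The share of DRD1-only nuclei was 7.89% with at least 2 UMIs and 8.22% after thinning, and that of DRD2-only nuclei 43.3% in library 2A alone. After thinning, 1 gene was higher in DRD2-only nuclei and 0 of the 4 were shared, which the floor of 3 UMIs did not allow in library 2A. Thinning left 1053 genes to test as higher in place of 2959. Leaving out the nucleus with most UMIs of each gene, one of 2 alternatives chosen after seeing the data, left 2 genes in each direction between DRD1-only and DRD2-only nuclei, and the other left 87 of the 98 higher genes. Beyond these settings, the cause of the changes was not tested. Leaving out animal 1 changed nothing, and leaving out animal 2 leaves no nuclei. No paired analysis was possible because all nuclei came from 1 animal. The pseudocount cannot change a rank correlation. At 1 UMI per 5.29 or 4.21 CPM, genes below 10 UMIs in a library were not tested as higher, whereas genes called lower could hold fewer.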
